A study of Mus musculus with 9 samples.

Results

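GABA-A receptors are chloride channels built from 5 subunits that open when the transmitter GABA binds, and they carry most fast inhibition in the brain. This account covers 7 of their subunit genes in the substantia nigra of fasted mice: Gabrr2, the alpha subunit genes Gabra2, Gabra3 and Gabra4, the beta subunit genes Gabrb1 and Gabrb2, and the gamma subunit gene Gabrg1. The members were taken by symbol from a table of 20591 genes, and all 7 were found and passed the filter on low counts. Gabrr2 was chosen by its measured rise in both fasting groups in an earlier analysis of the same libraries. Its differences are therefore given as a description without a test. The other 6 members were also listed with those results known.

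The libraries came from substantia nigra of wild type C57BL/6 mice, and every mouse, controls included, had a sham operation. Mice were 12 weeks old when they were allocated. The ad libitum group had free access to food for 1 week, and the 1 day group was fasted for 1 day. The 1 week group was kept on intermittent fasting with 3 fasts of 24 hours, each begun 2 hours before lights off. No label gives the time from the last fast to sampling, so "fasted" names the groups and not their state when sampled. Each group had 3 libraries, and no label ties a library to an animal, so spreads and p-values describe these libraries and may be partly technical. The earlier analysis had found 2 outlying libraries, replicate 2 in each fasted group, and the sums of cortical and blood markers were highest in 1 week replicate 3, so results that rest on them are given without them too.

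In most GABA-A receptors an alpha and a beta subunit form the GABA site, while a gamma subunit next to an alpha forms the site for benzodiazepines. The substantia nigra receives dense GABA input from the striatum and its reticular part is itself made largely of GABA neurons.

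Because the difference lay at Gabrr2, the 250 bases before its annotated start are shown with those of Gabrr1, its neighbour, and of Gabra2. After 1 week the level of the member Gabra2 was like that of Gabrr2 per transcript length, though not in CPM. The sequences are from RefSeq on GRCm38.p6, 5′ to 3′ on the gene's strand. Capitals mark TGTTCT or its reverse complement AGAACA, the half-site of the glucocorticoid receptor.
Gabrr2 (chr4:33062862-33063111, plus strand): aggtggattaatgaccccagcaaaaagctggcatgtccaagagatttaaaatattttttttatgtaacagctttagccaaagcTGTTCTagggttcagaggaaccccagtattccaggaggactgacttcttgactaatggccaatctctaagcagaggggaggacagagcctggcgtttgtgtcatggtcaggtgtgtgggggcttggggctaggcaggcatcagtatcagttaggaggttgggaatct
Gabrr1 (chr4:33132306-33132555, plus strand): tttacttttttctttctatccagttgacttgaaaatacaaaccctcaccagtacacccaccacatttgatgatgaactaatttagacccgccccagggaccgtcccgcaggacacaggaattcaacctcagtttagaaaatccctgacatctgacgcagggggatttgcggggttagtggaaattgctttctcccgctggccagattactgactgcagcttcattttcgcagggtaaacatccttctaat
Gabra2 (chr5:71095850-71096099, minus strand): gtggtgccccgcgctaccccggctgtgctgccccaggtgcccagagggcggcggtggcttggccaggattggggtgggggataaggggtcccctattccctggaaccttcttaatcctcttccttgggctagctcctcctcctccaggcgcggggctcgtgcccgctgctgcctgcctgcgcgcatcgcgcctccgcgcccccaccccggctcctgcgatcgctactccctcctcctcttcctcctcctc

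The window of Gabrr2 held 1 half-site, at position -167 from the start, and those of Gabrr1 and Gabra2 held none. Gabrb2, which did not pass the test, also had 1 in the windows of 2 of its 3 listed starts, at -150 and -180, so the half-site was not particular to Gabrr2. Of 32851 windows of the same length, 16.1% held a half-site on either strand, so a match is common. The full palindrome, AGAACA and TGTTCT separated by 3 bases of any kind, contains the half-site on each strand. It was in none of the windows of the 7 members and in 3 of all windows. Also searched were the FoxO core TGTTTAC, the CRE TGACGTCA, the clock E-box CACGTG and the TATA box TATAAA. The windows of Gabrr2 and Gabra2 held none of these. That of Gabrr1 held 1 FoxO core on the reverse strand, at -17, and 3.17% of all windows held that motif. The windows also differed in CG dinucleotides, which are dense in CpG island promoters. Gabrr2 had 1 CG, Gabrg1 1 and the first listed start of Gabra3 0, against 18 in Gabra2, 12 in Gabra4, 18 at the first start of Gabrb1 and a median of 6 over all windows. At or below the count of Gabrr2 were 18.8% of windows.

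Gabrr2 (ENSMUSG00000023267) had 56, 52 and 78 counts in replicates 1, 2 and 3 of the ad libitum group, 296, 160 and 257 in the 1 day group and 351, 318 and 360 in the 1 week group. Scaled to library size as counts per 1000000 (CPM), these were 1.36, 1.50 and 1.69 CPM in the ad libitum libraries, 6.15, 4.13 and 5.93 CPM after 1 day and 6.33, 8.67 and 8.32 CPM after 1 week. Every fasted library lay above every ad libitum library, and each 1 week library lay above each 1 day library, the nearest pair being replicates 1 of the fasted groups. Among all 20535 genes tested, 8.17% were higher without overlap after 1 day, 10.9% after 1 week and 4.5% between the fasted groups, shares given for scale since Gabrr2 was chosen on these differences. Replicate 2 of the 1 day group was the lowest of the 6 fasted libraries.

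The mean level of Gabrr2 was 1.52 ± 0.167 CPM (SD, n = 3) for ad libitum libraries, 5.40 ± 1.11 CPM after 1 day and 7.77 ± 1.26 CPM after 1 week. The difference from ad libitum was 3.56-fold after 1 day (log2 fold change 1.83, SE 0.21) and 5.11-fold after 1 week (2.35, SE 0.21). These comparisons share the 3 ad libitum libraries. Between the fasted groups the 1 week level was 1.44-fold that of 1 day (0.52, SE 0.20). That step was 0.37 on the log2 scale without replicate 2 of the 1 day group, and 0.29 without both outlying libraries. The differences from ad libitum were 1.99 and 2.28 without both.

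**Figure D1:**
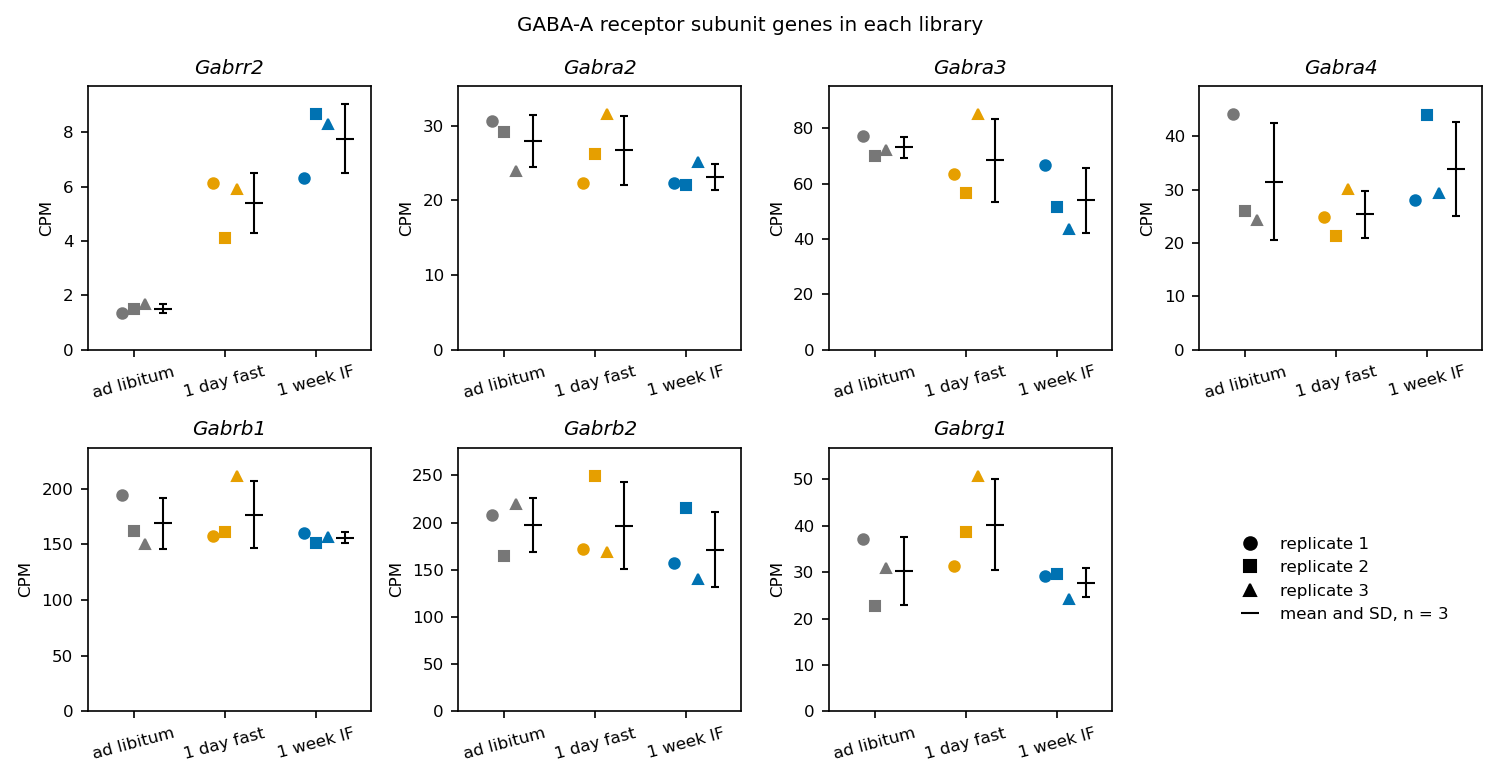
CPM (vertical axis, from 0) of the 7 members in each library, by group; symbols give the replicate and bars the mean and SD of 3 libraries. Gabrr2 lies between 1.36 and 1.69 CPM in the ad libitum group and between 4.13 and 8.67 CPM in the fasted groups, while the ranges of most other members overlap.

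Per transcript length Gabrr2 had the lowest mean of the 7 members in the ad libitum and 1 day groups. Divided by the length of the longest coding transcript (1933 bases for Gabrr2), it was 0.785 ± 0.0865 CPM per kb (SD, n = 3) in ad libitum libraries, 2.79 ± 0.573 after 1 day and 4.02 ± 0.654 after 1 week. On this scale Gabra2 (5852 bases) was at 4.77 ± 0.593 CPM per kb ad libitum, 4.56 ± 0.786 after 1 day and 3.96 ± 0.295 after 1 week. By library, Gabrr2 was at 3.27, 4.49 and 4.30 CPM per kb after 1 week and Gabra2 at 3.80, 3.77 and 4.30. Gabrr2 was thus below Gabra2 in every ad libitum and 1 day library, and their ranges overlapped after 1 week. Of the summed level per kb of the 16 measured subunit genes, Gabrr2 made up 0.295 ± 0.0496% ad libitum, 1.06 ± 0.292% after 1 day and 1.76 ± 0.341% after 1 week.

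In the ad libitum group the order of the members per kb was Gabrb2 (49.4 CPM per kb), Gabra3 (20.0), Gabrb1 (12.3), Gabra4 (7.67), Gabrg1 (6.34), Gabra2 (4.77) and Gabrr2 (0.785). Gabra4 overlapped with Gabrg1 over the 3 libraries, as did Gabrg1 with Gabra2, so their order is within the spread. With the median length of the coding transcripts in place of the longest, Gabra4 (13.1) stood above Gabrb1 (12.3). The order thus rests in part on which transcripts are expressed, which the gene counts do not give.

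**Figure D2:**
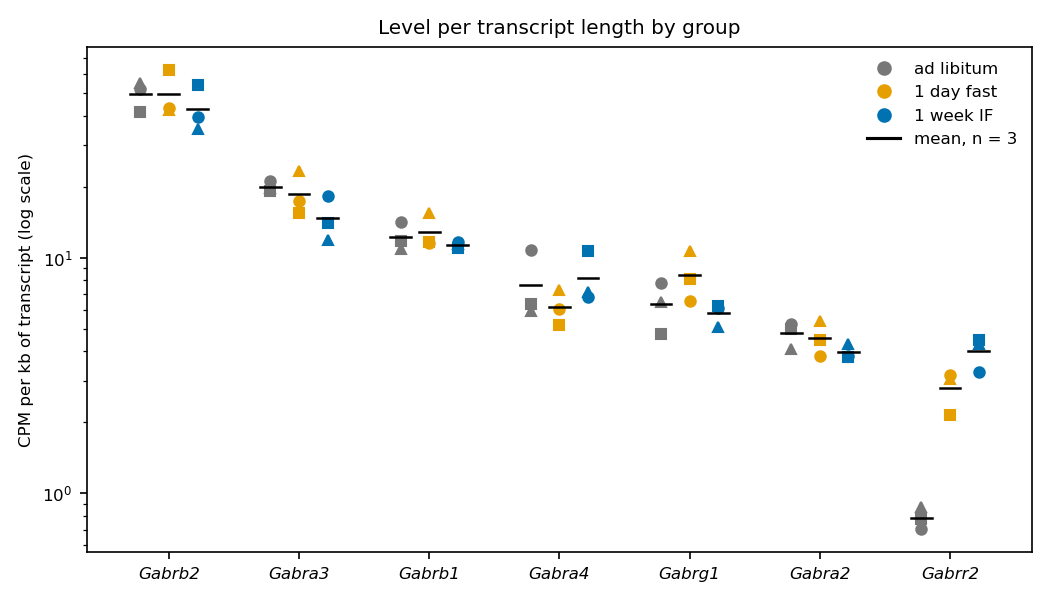
CPM per kb of the longest coding transcript (log axis) of the 7 members, ordered by ad libitum mean; points are libraries (symbols give the replicate), colours groups and lines the mean of 3 libraries. Gabrr2 lies at 0.785 CPM per kb ad libitum and at 4.02 after 1 week, beside 3.96 for Gabra2.

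Among the alpha subunits, which largely set where a receptor is found and how it responds to benzodiazepines, Gabra2 was at 30.6, 29.1 and 24.0 CPM ad libitum, 22.4, 26.2 and 31.5 CPM after 1 day and 22.3, 22.1 and 25.2 CPM after 1 week. The groups overlapped, and its log2 fold change was -0.06 (SE 0.15) after 1 day and -0.27 (SE 0.15) after 1 week. Gabra3, the alpha subunit of many monoaminergic neurons, was at 77.4, 70.0 and 72.2 CPM ad libitum, 63.5, 56.7 and 85.1 CPM after 1 day and 67.0, 51.5 and 43.6 CPM after 1 week.

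All 3 libraries of the 1 week group lay below the ad libitum libraries for Gabra3, the 1 member of the other 6 for which these groups did not overlap. Over all genes tested, 11.5% lay lower after 1 week in the same way and 22.4% did not overlap in either direction, against 10.3% and 18.5% after 1 day. The log2 fold change of Gabra3 was -0.44 (SE 0.18) and did not pass (edgeR's quasi-likelihood test, adjusted p = 0.402 over all genes), and after 1 day it was -0.10 (SE 0.18). Replicate 3 of the 1 week group, the lowest, also had the highest sum of 7 measured cortical and hippocampal neuron markers, 1421 CPM against 313 to 529 CPM in the other libraries. Without it the difference was -0.30 (SE 0.18), and without replicate 1 of that group, the highest, it was -0.62 (SE 0.18). The part of these markers in the result was not tested.

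Gabra4, whose subunit is abundant in thalamus and striatum, was at 44.1, 26.1 and 24.3 CPM ad libitum, 25.0, 21.3 and 30.1 CPM after 1 day and 28.0, 44.0 and 29.4 CPM after 1 week. Its high libraries were thus 1 in the ad libitum group and 1 in the 1 week group. The summed level of 3 markers of thalamic and midbrain glutamate neurons was also highest in these 2 libraries. It was 454 CPM in ad libitum replicate 1 and 564 CPM in 1 week replicate 2, against 132 to 445 CPM in the others. The other libraries did not follow this order. In 1 day replicate 2 the sum was 445 CPM and Gabra4 was at its lowest, 21.3 CPM. In 1 week replicate 3 the sum was lowest, 132 CPM, with Gabra4 at 29.4 CPM. The match in the 2 high libraries was noticed after the values were seen, and the part of these markers in the spread of Gabra4 was not tested. The log2 fold change of Gabra4 was -0.31 (SE 0.26) after 1 day and 0.10 (SE 0.25) after 1 week. Without ad libitum replicate 1 these were 0.01 and 0.42, and without 1 week replicate 2 the second was -0.12, so its direction was set by single libraries.

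The beta subunits, needed for assembly and part of the GABA site, had the highest CPM of the members, although per kb Gabra3 lay above Gabrb1. Gabrb2 was at 207, 165 and 219 CPM ad libitum, 172, 250 and 168 CPM after 1 day and 157, 216 and 140 CPM after 1 week. Gabrb1 was at 194, 162 and 150 CPM ad libitum, 158, 161 and 212 CPM after 1 day and 161, 151 and 156 CPM after 1 week. For both genes the groups overlapped. The log2 fold changes of Gabrb2 were -0.0050 (SE 0.20) and -0.20 (SE 0.20) after 1 day and 1 week, and those of Gabrb1 were 0.07 (SE 0.14) and -0.11 (SE 0.14). Within each fasted group Gabrb2 was highest in the outlying library. Without both outlying libraries its differences were -0.21 (SE 0.12) after 1 day and -0.40 (SE 0.12, adjusted p = 0.217, edgeR) after 1 week.

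Gabrg1, whose gamma subunit is also found in glia, was at 37.2, 22.7 and 30.9 CPM ad libitum, 31.2, 38.7 and 50.8 CPM after 1 day and 29.3, 29.7 and 24.1 CPM after 1 week. The 1 week libraries lay below all 1 day libraries, which 3.28% of all genes did (7.79% in either direction), while both fasted groups overlapped with ad libitum. The log2 fold change was 0.41 (SE 0.21) after 1 day, -0.13 (SE 0.21) after 1 week and -0.54 (SE 0.21, adjusted p = 0.853, edgeR) between the fasted groups. Replicate 3 of the 1 day group carried much of this: without it the differences were 0.21 after 1 day and -0.33 between the fasted groups.

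None of the other 6 members passed edgeR's quasi-likelihood test at an adjusted p of 0.05. In all 20535 genes tested, 0.0584% passed after 1 day, 0.307% after 1 week and 0% between the fasted groups, so 0 of 6 is near the background. By direction, 0.0536% were higher and 0.00487% lower after 1 day, and 0.253% higher and 0.0536% lower after 1 week. Their adjusted p was between 0.550 and 0.996 after 1 day and between 0.402 and 0.916 after 1 week. At an unadjusted p below 0.05 there were 0 of 6 after 1 day, 1 of 6 (Gabra3) after 1 week and 1 of 6 (Gabrg1) between the fasted groups, against 9.27%, 11.2% and 5.22% of all genes. DESeq2 and limma's voom passed 0 in each comparison. Between the fasted groups 1071 genes in all had an unadjusted p below 0.05, and DESeq2 called 3 genes and voom 0. The median log2 fold change of the 6 was -0.03 after 1 day and -0.17 after 1 week, against 0.00041 and -0.0013 over all genes.

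**Figure D3:**
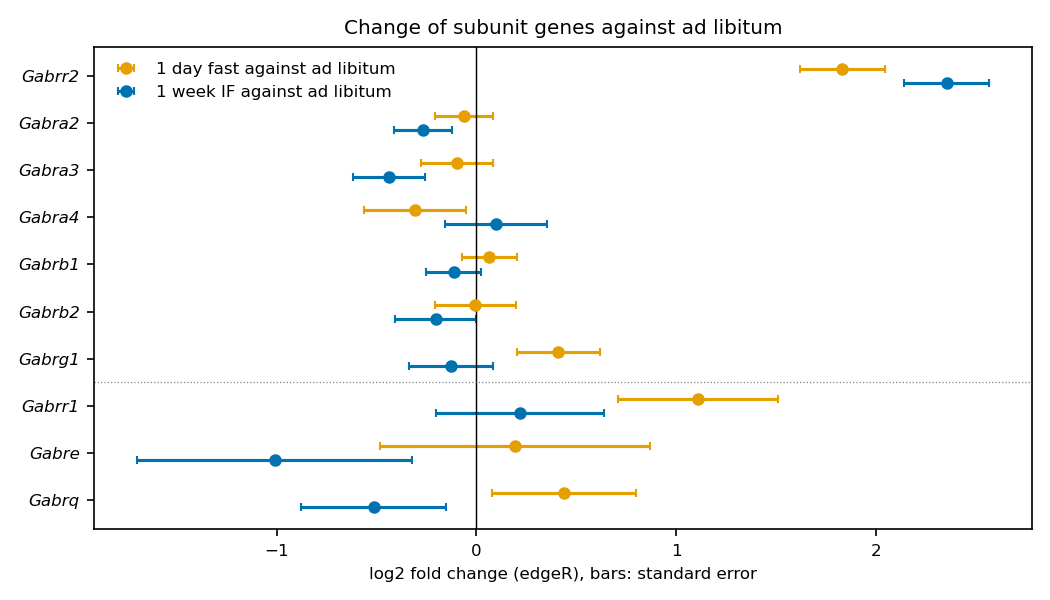
Log2 fold change against ad libitum (horizontal axis, edgeR) with standard error for the 7 members, above the grey line, and for Gabrr1, Gabre and Gabrq, below it. Gabrr2 stands at 1.83 and 2.35, and the other 6 members between -0.44 and 0.41.

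Of 19 subunit genes listed, 16 were in the table, and 9 of these were not members. None of the 9 passed edgeR's test, with adjusted p between 0.486 and 0.940 after 1 day and between 0.416 and 0.983 after 1 week. Gabrr1 had 0.211 ± 0.0821 CPM ad libitum (SD, n = 3), 0.461 ± 0.0994 CPM after 1 day and 0.250 ± 0.0717 CPM after 1 week. Its log2 fold change was 1.11 (SE 0.40) after 1 day and 0.22 (SE 0.42) after 1 week, from 5 to 25 counts per library, and all 3 libraries of the 1 day group lay above the ad libitum libraries, as 8.17% of all genes did. Gabre and Gabrq, the epsilon and theta subunit genes that flank Gabra3 on the X chromosome, had log2 fold changes of 0.19 (SE 0.67) and 0.44 (SE 0.36) after 1 day and -1.01 (SE 0.69) and -0.51 (SE 0.36) after 1 week. Both were highest in replicate 3 of the 1 day group, at 14.4 CPM for Gabre and 47.1 CPM for Gabrq.

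That library held the highest value of 8 of the 16 measured subunit genes, among them the members Gabra2, Gabra3, Gabrb1 and Gabrg1, and no other library held more than 2. It also had the lowest sum of 8 dopaminergic neuron markers, 692 CPM against 1062 to 1723 CPM in the others. In lysate of whole tissue fewer cells of a type and less RNA per cell cannot be told apart.

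By position, Gabrg1, Gabra2, Gabra4 and Gabrb1 lie in 1 cluster on chromosome 5 in RefSeq's GRCm38.p6 annotation, where the gene models of Gabra4 and Gabrb1 overlap on opposite strands. The library kit was directional, but no source used here says whether the counting used strand. Reads from that overlap, though not those from the rest of the 2 genes, thus cannot be assigned with certainty. Within this cluster the log2 fold changes after 1 week were between -0.27 and 0.10. Gabrr2 lies on chromosome 4 between Ube2j1 and Gabrr1. Ube2j1, a ubiquitin-conjugating enzyme gene, had log2 fold changes of 0.08 (adjusted p = 0.798, edgeR) and 0.01 (adjusted p = 0.991) after 1 day and 1 week, and the next gene, Rragd, 0.18 (adjusted p = 0.589) and 0.0038 (adjusted p = 0.995). Pm20d2, beyond Gabrr1, was at -0.22 (adjusted p = 0.647) and -0.04 (adjusted p = 0.956). No gene of these 4 neighbours passed the test. That is near the background, since 0.0584% of all genes passed after 1 day and 0.307% after 1 week.

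Over 7 lists of GABA and glycine signalling, 71 measured genes besides Gabrr2 were tested. In each comparison 0 passed edgeR's test, against 0.0584%, 0.307% and 0% of all genes. At an unadjusted p below 0.05 there were 6 after 1 day, 5 after 1 week and 7 between the fasted groups. These were 8.45%, 7.04% and 9.86%, against 9.27%, 11.2% and 5.22% of all genes. DESeq2 and voom called 0 of the 71. The median log2 fold change over the 71 was -0.06 after 1 day and -0.13 after 1 week.

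None of the 9 genes of GABA synthesis, packing, uptake and breakdown passed. Gad2, which makes GABA from glutamate, was at 305 ± 53.6 CPM ad libitum (SD, n = 3), 274 ± 18.5 CPM after 1 day and 239 ± 30.6 CPM after 1 week, a log2 difference of -0.35 (SE 0.15) after 1 week. Slc32a1, which loads GABA into vesicles, was at 183 ± 18.4, 141 ± 37.6 and 156 ± 4.20 CPM in the same order. None of 6 genes of the metabotropic GABA-B receptor and its auxiliary subunits passed. For Gabbr2, which encodes a core subunit, the 1 day difference was -0.43 on the log2 scale (SE 0.19), and for Kctd8, an auxiliary subunit, it was -0.35 (SE 0.22).

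None of 18 genes of the inhibitory synapse scaffold and receptor trafficking passed, and their median log2 fold change was 0.05 after 1 day and 0.01 after 1 week. Gabarap, whose protein binds GABA-A receptors, was at 111 ± 4.39 CPM ad libitum, 92.7 ± 15.2 CPM after 1 day and 107 ± 2.06 CPM after 1 week (SD, n = 3). Its paralog Gabarapl1, which also acts in autophagy, was at 442 ± 14.1, 542 ± 95.4 and 508 ± 60.0 CPM. The log2 fold changes of Gabarapl1 were 0.29 (SE 0.14) and 0.20 (SE 0.14). For Gabarapl1 each fasted library lay above each ad libitum library, as 8.17% of all genes did after 1 day and 10.9% after 1 week. For Gabarap each fasted library lay below, as 10.3% and 11.5% of all genes did. Of the 18 genes, 2 lay higher and 2 lower without overlap after 1 day. After 1 week 2 lay higher and 3 lower.

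Of 11 genes that set the chloride gradient, on which the effect of GABA depends, 0 passed. Their median log2 fold change was -0.26 after 1 day and -0.17 after 1 week, with 9 and 10 negative values, against 10250 and 10312 of 20535 over all genes. Car2, a carbonic anhydrase also expressed strongly in oligodendrocytes, was at 194 ± 35.0 CPM ad libitum, 100.1 ± 18.1 CPM after 1 day and 107 ± 42.1 CPM after 1 week (SD, n = 3), with log2 fold changes of -0.96 (SE 0.28) and -0.86 (SE 0.28). Wnk1, a kinase upstream of the chloride cotransporters, had -0.40 (SE 0.13) and -0.37 (SE 0.13). For both genes the fasted libraries lay below ad libitum, as 10.3% of all genes did after 1 day and 11.5% after 1 week. The sum of 6 oligodendrocyte markers was 8957 to 11179 CPM ad libitum, 7604 to 8697 CPM after 1 day and 7549 to 9337 CPM after 1 week, and its part in these values was not tested.

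None of 5 glycine receptor genes passed. Glra3 had a log2 fold change of 0.08 (SE 0.19) after 1 day and -0.40 (SE 0.19) after 1 week, and Glra1 -0.56 (SE 0.26) and -0.40 (SE 0.26). None of 7 genes for neurosteroid synthesis and ligands of the benzodiazepine site passed. Tspo, a mitochondrial outer membrane protein, had -0.91 (SE 0.40) after 1 day and Dbi, whose peptide binds the benzodiazepine site, -0.41 (SE 0.21).

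Of 16 cell type marker lists, 4 had sums that did not overlap with ad libitum after 1 day, and these, of oligodendrocytes, oligodendrocyte precursors, microglia and blood, lay lower. After 1 week the sums of astrocyte, striatal neuron and blood markers lay higher. The median log2 fold change of the 6 striatal markers was -0.03, and none passed the test. Of the 8 astrocyte markers, 1 passed as higher after 1 week, against 0.253% of all genes, and their median log2 fold change was 0.13. For scale, 18.5% of single genes did not overlap in either direction after 1 day and 22.4% after 1 week. The astrocyte sum was 3986 to 4230 CPM ad libitum and 4307 to 4564 CPM after 1 week, the striatal sum 113 to 127 and 138 to 160 CPM, and the blood sum 283 to 309 and 315 to 966 CPM. Endothelial markers summed to 248 to 299 CPM ad libitum, 244 to 253 CPM after 1 day and 223 to 288 CPM after 1 week, and the 3 markers of GABA neurons to 707 to 987, 689 to 765 and 664 to 741 CPM. The dopaminergic markers Th and Slc6a3 were present in every library, at 76.1 to 296 CPM and 184 to 526 CPM, and no measured marker of the 16 lists was at 0. The part of these markers in the level of Gabrr2 was not tested.

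The pattern of Gabrr2 was compared with that of 13883 genes with a gene name and a mean log2 CPM of 0 or more by Pearson's r of log2 CPM over the 9 libraries, as a measure of likeness alone. Of these, 63 had an r of at least 0.9 and the median r was -0.08. Since the libraries fall into 3 groups, a high r mainly reflects shared differences between groups. The 8 most similar genes had r between 0.975 and 0.996. Arrdc2, an alpha-arrestin gene, came first (r = 0.996), with a log2 fold change of 1.56 after 1 day and 2.03 after 1 week. Next were Plin4 (0.988), which encodes a lipid droplet coat protein, Dclre1b (0.986), a DNA nuclease of telomeres, and Sgk1 (0.982), a serum and glucocorticoid regulated kinase.

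Fam83d, which encodes a mitotic spindle protein, had an r of 0.981, Plekhf1, an endosomal protein gene, 0.977, Net1, a guanine nucleotide exchange factor, 0.976 and Cdkn1a, the cell cycle inhibitor p21, 0.975. After the group means were removed, r with Gabrr2 was 0.945 for Arrdc2 and 0.921 for Cdkn1a and between 0.407 and 0.787 for the other 6. The 8 genes were picked by r over the same libraries, which favours high values here too. This r was not computed over all genes, so these values are a description alone. None of the other 6 members was among these 8 genes, which holds for nearly all of the 13883 genes compared. Over the 9 libraries the r of the 6 with Gabrr2 was between -0.57 (Gabra3) and 0.05 (Gabrg1), against the median of -0.08.

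**Figure D4:**
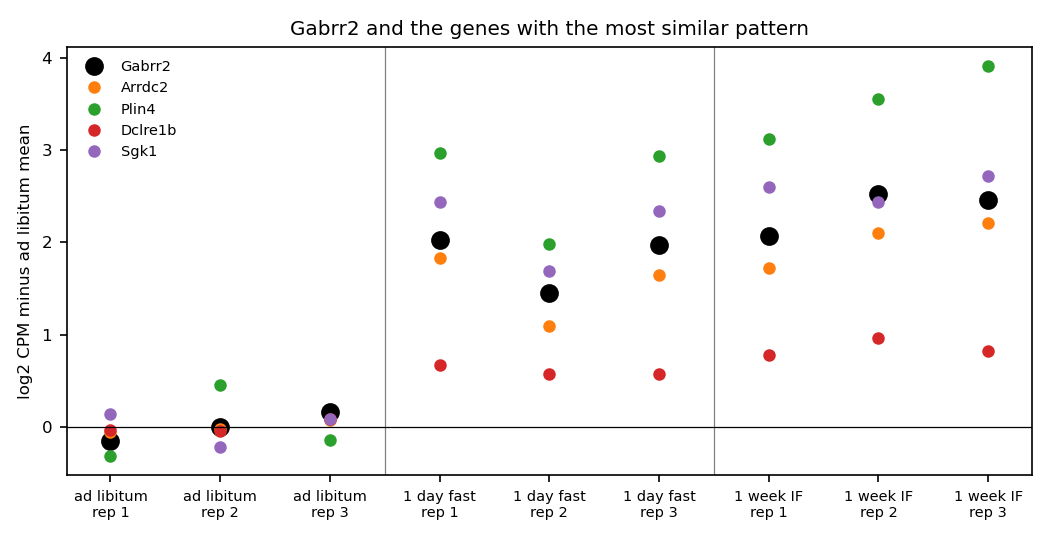
Log2 CPM minus the mean of the ad libitum libraries (vertical axis) in each of the 9 libraries for Gabrr2 (large black points) and the 4 genes with the highest r. In the 1 day group replicate 2 is the lowest library for Gabrr2, Arrdc2, Plin4 and Sgk1.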

How the data were processed

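RNA-seq counts of 9 substantia nigra libraries were analysed, 3 per group, with groups taken from the treatment labels. Per the labels' protocols, polyA RNA and a directional library kit were used. The submitters' processing notes name Salmon, DESeq2 1.40.2 and the builds GRCm39 and mm39. No source used here gives the Salmon version, the annotation release or any filter applied to the table. The deposited values are estimated counts per gene as whole numbers, not scaled to depth, with 36109995 to 54248856 counts per library. The lowest mean of any deposited row was 9.89 counts, so genes below that are not analysed here. Salmon divides reads between similar transcripts, so counts of close paralogs carry that uncertainty.

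Testing used edgeR 4.0.16 under R 4.3.3 (TMM factors, filterByExpr with minimum count 10 and minimum total 15, robust quasi-likelihood fit to all 9 libraries, two-sided F tests, Benjamini-Hochberg adjustment over 20535 genes, threshold 0.05). CPM uses TMM library sizes, log2 CPM a prior count of 2, and standard errors come from the F statistics. DESeq2 1.42.0, limma 3.58.1 and the other alternatives are given in the closing section. The fits were tested on simulated counts with known changes. There edgeR recovered 5.97% of genes changed 1.5-fold after 1 day, 8.96% after 1 week and 14.9% between the fasted groups. At 2-fold it recovered 58.2%, 61.2% and 59.7%. Changes of 1.5-fold were thus mostly missed. At 2-fold DESeq2 recovered 79.1% after 1 day and 71.6% after 1 week. It made 57 and 43 false calls among the unchanged genes there, against 10 and 9 for edgeR and 10 and 12 for voom. Transcript lengths came from GENCODE M21 (GRCm38) by gene identifier. Promoter windows came from RefSeq and leave out the 50 bases after the start. All 7 members had an entry. The members, lists and tests were chosen with earlier results of these data known. The genes named are the members, the other subunits, per further list the genes past the test or else the 2 with the smallest p against ad libitum, and the 8 genes most like Gabrr2. Of the subunits, 6 are not reported here by name.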

Additional observations from a re-analysis of the deposited data

How the results depend on the processing

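Each comparison was recomputed under 17 alternatives: DESeq2, RLE size factors, no low-count filter, 1 CPM in at least 6 libraries, limma's voom with quality weights, the replicate block, only the 6 libraries compared, each of the 9 libraries left out and both libraries that stood apart left out. The log2 difference of Gabrr2 kept its sign in all of them. Leaving out 1 library, it was 1.73 to 1.99 after 1 day, 2.28 to 2.48 after 1 week and 0.37 to 0.65 between the fasted groups. The last value was 0.30 with quality weights and 0.29 without both libraries that stood apart. Under every alternative 0 of the other 6 members and 0 of the 71 GABA and glycine genes passed, with adjusted p of the 6 at 0.217 or above.

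Of 306 values of the other 6 members under alternatives, 22 had the opposite sign, at most 0.12 in size. After 1 day Gabrb2 (main value -0.0050) was 0.0073 with DESeq2, 0.0073 with RLE factors, 0.0028 with the 1 CPM filter and 8.9e-05 with the 6 libraries alone. Without both libraries that stood apart, Gabra3 was 0.022 after 1 day and Gabra4 -0.12 after 1 week. Leaving out 1 library, the ranges that crossed 0 after 1 day were -0.19 to 0.050 for Gabra2, -0.28 to 0.022 for Gabra3, -0.46 to 0.014 for Gabra4, -0.078 to 0.18 for Gabrb1 and -0.21 to 0.10 for Gabrb2. After 1 week they were -0.12 to 0.42 for Gabra4, -0.18 to 0.00088 for Gabrb1 and -0.30 to 0.047 for Gabrg1, and between the fasted groups -0.39 to 0.014 for Gabrb2.

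With the replicate block Gabrr2 was at 1.83, 2.36 and 0.52 in the 3 comparisons, and no call among the GABA genes changed. Deviations of same-numbered libraries from their group means correlated between -0.24 and 0.41 across 16266 genes, so not every library went with its own number. Over all genes the count of calls with the block was 2 after 1 day and 32 after 1 week, against 12 and 63. It was 184 and 464 with DESeq2, 57 and 218 with voom, 26 and 155 with the 6 libraries alone and 50 and 70 without both libraries that stood apart, and leaving out 1 library it was 0 to 22 and 8 to 121. With 52 to 360 counts per library for Gabrr2 and 5 to 25 for Gabrr1, counting error limits Gabrr1 most.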
